A study of Mus musculus with 8 samples.

Results

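Long noncoding RNAs are transcripts that carry no long conserved protein-coding frame. Some act in the nucleus as scaffolds of RNA and protein bodies or as regulators of a neighbouring gene, and others serve mainly as the host transcript from whose introns small nucleolar RNAs (snoRNAs) or microRNAs are cut. Several are known from lymphocytes, where they tune survival or the response to inflammatory signals. The set described here holds the 71 autosomal long noncoding RNAs with at least 5 CPM (depth-scaled counts, a gene's count over its library's total) in each of 8 libraries, out of 1379 autosomal long noncoding RNAs and 16735 genes of all classes that both experiments' count data list. The members were chosen by these levels in all 8 libraries, so that a gene switched off in any group cannot be among them, and a member's presence is no finding. Just inside the minimum, the lowest CPM of a library was 5.09 for E130307A14Rik, 5.14 for 2810002D19Rik and 5.22 for 5830428M24Rik. Just outside it were 3110056K07Rik at 4.99, Gm10366 at 4.98 and Snhg8 at 4.90.

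The libraries are bulk RNA-seq of T follicular helper (Tfh) cells, which give help to germinal centre B cells. All groups are from K/BxN Th17 fate-mapping mice. K/BxN animals develop arthritis spontaneously, and the reporter keeps the fluorescent protein ZsGreen in a cell with a Th17 past. The labels used here do not name the driver of the reporter, nor the age or number of the mice. Cells were gated as CD4+, TCRβ+, CD25-, CXCR5+ and PD-1+. Peyer's patches (lymphoid tissue in the wall of the small intestine) and spleen each gave a ZsGreen+ and a ZsGreen- group, 4 groups in all. Each group had 2 libraries, 1 from experiment 1 and 1 from experiment 2. In bulk samples, fewer cells of a type and less RNA per cell cannot be told apart.

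The libraries held 10009823 to 15323743 estimated counts. The 71 members took 0.475% to 1.33% of them, of which Malat1 alone took 0.136% to 1.05%. The smallest count of a member in any library was 51.0. The Tfh marker Cxcr5 was between 85.3 and 941 CPM in the 8 libraries. The 8 markers of Th17 cells summed to 170 to 277 CPM in ZsGreen- libraries and to 635 to 1956 CPM in ZsGreen+ libraries. The 8 B cell markers summed to between 0.799 CPM in spleen and 76.2 CPM in Peyer's patch, and Ms4a1 had 0 CPM in both spleen ZsGreen- libraries. Per the labels' protocols, libraries were made by poly A selection or by an ultra-low-input method that does not keep strand, and which library had which method is not given. Where strand is not kept, a read in bases that genes of both strands share cannot be assigned. By gene span, 24 of the 71 overlapped a protein-coding gene on the other strand, though some of these, such as Arhgap27os3 and Gm13012, shared no exon bases with another gene. A further 8 overlapped one on the same strand, where keeping strand would not separate the reads in shared bases. Among the latter, 2810013P06Rik and Gm4316 lay within the annotated span of Galnt2l, whose start was 3131625 and 3254414 bases from theirs. Neither shared an exon base with another gene. Another 6 stood head to head with a coding gene within 5 kb, 6 lay behind or before one on the same strand, 1 lay tail to tail, and 26 had none within that distance. These overlaps and distances cover only coding genes that both experiments' count data list. Coding genes outside the count data were not searched and may lie nearer. Of the 71, 45 shared at least 1 exon base with another annotated gene, and 14 shared over 20% of their exon bases.

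Levels between genes were compared as mean TMM-scaled CPM per kb of exon. Malat1, the abundant RNA of nuclear speckles, was highest at 764 CPM per kb. AW112010, an RNA induced in activated immune cells that also carries a translated short reading frame, followed at 549, then Gm10076 at 471, AI662270 at 88.7 and AU020206 at 48.7. The lowest was Kcnq1ot1 at 0.366, whose annotated exon of 93092 bases makes its level per length small. From here on, levels are TMM-scaled CPM and are compared within a gene. Log2 changes (log2 fold changes) are values from edgeR's quasi-likelihood test with a term for the experiment, given with their standard error (SE). A gene is said to have risen or fallen where its Benjamini-Hochberg adjusted p over all 14418 tested genes was under 0.05. All 71 members were among the genes tested.

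The ZsGreen sort in spleen asks which RNAs differ between Tfh cells with and without a Th17 past. There, 11 of the 71 members (15.5%) changed, 5 higher and 6 lower in ZsGreen+ cells. Over all genes tested, 8.62% changed in this comparison, 4.53% higher and 4.09% lower, and among 7692 protein-coding genes with the same minimum of 5 CPM in every library 9.62% did. The members' median log2 change was -0.08, and that of all genes was -0.03. Each of the 11 had the same sign in both experiments, as did 1241 of the 1243 genes called in all. With RLE size factors the calls were 5 higher and 4 lower, and with upper quartile scaling 4 higher and 8 lower. A fit without the experiment term called 0 members, and 0 of all genes, here and in the tissue comparisons described further on. The count was 7 without spleen ZsGreen- replicate 2 and 7 without spleen ZsGreen+ replicate 1. The number of all genes called also fell in both of these fits. In the spleen sort all 8 Th17 markers rose and 3 of 8 Tfh markers fell (Cxcr5, Sh2d1a and Tox2). The part of the mix of cells in the members' changes was not tested.

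**Figure D1:**
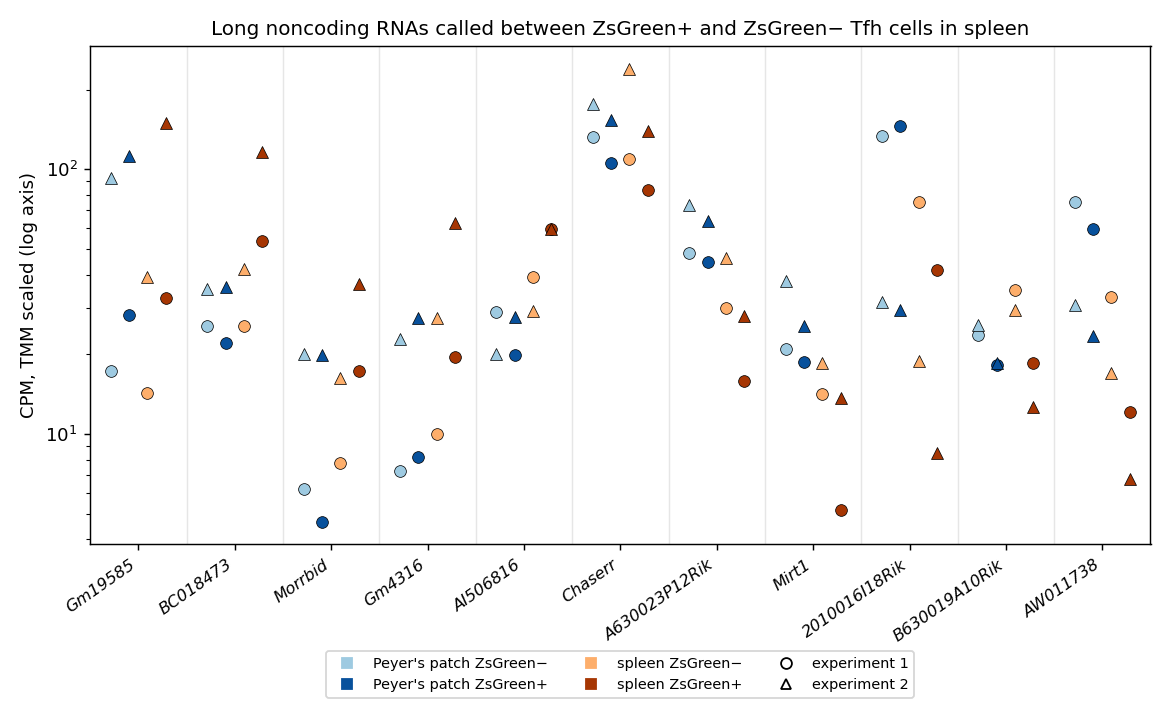
Levels of the 11 long noncoding RNAs that changed between ZsGreen+ and ZsGreen- Tfh cells in spleen, in each of the 8 libraries (TMM-scaled CPM, log axis; colours are the 4 groups, circles experiment 1 and triangles experiment 2). The 5 genes on the left are higher in spleen ZsGreen+ than in spleen ZsGreen- cells of the same experiment, and the 6 on the right are lower.

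Among the 5 that rose, Gm19585 had the largest change. It lies on the plus strand at chr17:52293443-52471004 (mm39) with no coding gene of the count data within 5 kb. Its level in spleen was 14.3 CPM in ZsGreen- and 32.6 CPM in ZsGreen+ cells of experiment 1, and 39.2 and 150.1 CPM in experiment 2. In both experiments the ZsGreen+ library was the higher, although the groups overlapped across experiments. The log2 change was 1.55 (SE 0.20, adjusted p = 0.0011 by edgeR). In Peyer's patch the same gene went from 17.4 to 28.2 CPM in experiment 1 and from 92.8 to 112 CPM in experiment 2, a log2 change of 0.46 (SE 0.19, adjusted p = 0.56 by edgeR).

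BC018473 lies at chr11:116642993-116650199 (mm39), also without a coding gene of the count data within 5 kb. It was at 25.7 and 42.2 CPM in spleen ZsGreen- cells of experiments 1 and 2 and at 53.8 and 116 CPM in spleen ZsGreen+ cells. The other 6 libraries, all below both of these, lay between 22.0 and 42.2 CPM. Its log2 change was 1.28 in spleen (SE 0.17, adjusted p = 0.00091 by edgeR) and -0.10 in Peyer's patch (SE 0.17). The difference between the tissues was 1.37 (SE 0.24, adjusted p = 0.060 by edgeR), which missed the threshold. That adjusted p ranged from 0.0016 with DESeq2 to 0.40 without Peyer's patch ZsGreen- replicate 1 among the alternatives that keep the experiment term.

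Morrbid, a long noncoding RNA known to restrain transcription of the nearby pro-apoptotic gene Bcl2l11 in short-lived myeloid cells and in CD8 T cells, rose in spleen ZsGreen+ cells. It was at 7.81 and 16.2 CPM in spleen ZsGreen- cells and at 17.4 and 36.8 CPM in spleen ZsGreen+ cells of experiments 1 and 2, a log2 change of 1.16 (SE 0.26, adjusted p = 0.018 by edgeR). In Peyer's patch it was at 6.21 and 20.1 CPM in ZsGreen- cells and at 4.67 and 19.9 CPM in ZsGreen+ cells, and did not pass the test. The spleen call was lost without spleen ZsGreen- replicate 2 or spleen ZsGreen+ replicate 1, with an adjusted p of up to 0.19 by edgeR. Bcl2l11, which encodes the BH3-only protein Bim and was looked up after the values were seen, was at 67.5 and 24.5 CPM in spleen ZsGreen- cells and at 149 and 62.1 CPM in spleen ZsGreen+ cells. In spleen its log2 change was 1.22 (SE 0.17, adjusted p = 0.0016 by edgeR), so that this gene and Morrbid both rose there. Between the experiments Bcl2l11 was lower in experiment 2 (log2 change -1.18, SE 0.12) and Morrbid was higher. In ZsGreen+ cells both were lower in Peyer's patch than in spleen, Bcl2l11 with a log2 change of -1.42 (SE 0.17).

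The remaining members that rose were Gm4316 and AI506816. Gm4316 was at 10.001 and 27.4 CPM in spleen ZsGreen- cells and at 19.5 and 62.7 CPM in spleen ZsGreen+ cells, a log2 change of 1.08 (SE 0.17, adjusted p = 0.0030 by edgeR). Its call was lost without spleen ZsGreen- replicate 2 (adjusted p = 0.052 by edgeR). AI506816 was at 39.1 and 29.3 CPM in spleen ZsGreen- cells and at 59.6 and 59.5 CPM in spleen ZsGreen+ cells, where its 2 libraries were above all 6 others. The change was 0.80 on the log2 scale (SE 0.22, adjusted p = 0.046 by edgeR). The call was lost with upper quartile scaling and without any 1 of 6 libraries, the 4 of spleen and the 2 of Peyer's patch ZsGreen-, with an adjusted p of up to 0.32.

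AW011738 fell the most in spleen. It lies on the plus strand at chr4:156287727-156295020 (mm39), head to head with Isg15, an interferon-induced ubiquitin-like modifier, with 2474 bases between their starts. AW011738 was at 33.0 and 17.02 CPM in spleen ZsGreen- cells of experiments 1 and 2 and at 12.1 and 6.77 CPM in spleen ZsGreen+ cells. Both spleen ZsGreen+ libraries were below all 6 others. The log2 change was -1.39 (SE 0.19, adjusted p = 0.0010 by edgeR). Isg15 was at 29.7 and 70.8 CPM in spleen ZsGreen- cells and at 22.4 and 28.7 CPM in spleen ZsGreen+ cells, a log2 change of -0.86 (SE 0.20, adjusted p = 0.020 by edgeR).

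The 150 bases before the start of each of these neighbours are shown because they differ in the interferon-stimulated response element (ISRE), searched as GAAANNGAAA on both strands and marked in capitals. They come from RefSeq (GRCm38.p6), the AW011738 piece at chr4:156203134-156203283 on the plus strand and the Isg15 piece at chr4:156200819-156200968 on the minus strand.
AW011738: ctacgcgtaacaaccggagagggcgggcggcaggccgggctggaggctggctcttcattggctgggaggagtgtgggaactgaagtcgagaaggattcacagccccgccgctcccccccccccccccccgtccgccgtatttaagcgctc
Isg15: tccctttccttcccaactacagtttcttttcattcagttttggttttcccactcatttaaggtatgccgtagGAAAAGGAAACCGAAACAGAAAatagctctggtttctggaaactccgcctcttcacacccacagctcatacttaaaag
The Isg15 promoter window of 300 bases held 3 overlapping matches, and the window of AW011738 held none. Of 32851 RefSeq promoters of that length 3.44% held the motif, and of the 48 members with a promoter listed there only Rab10os, 1 member, did. A match describes letters only.

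2010016I18Rik overlaps Dennd2d on the opposite strand at chr3:106389298-106393229 (mm39), with 11.01% of its exon bases shared. It was at 75.1 and 18.9 CPM in spleen ZsGreen- cells and at 41.5 and 8.49 CPM in spleen ZsGreen+ cells, a log2 change of -0.97 (SE 0.15, adjusted p = 0.0022 by edgeR). Dennd2d, which encodes an activator of Rab GTPases, was at 424 and 513 CPM in spleen ZsGreen- cells and at 240.2 and 190.2 CPM in spleen ZsGreen+ cells, with a log2 change of -1.12 (SE 0.20, adjusted p = 0.0054 by edgeR). Where a library did not keep strand, reads in the shared bases cannot be assigned to either gene, and their part in the pair's values was not tested. Between the experiments 2010016I18Rik had a log2 change of -2.17 and Dennd2d one of -0.01.

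B630019A10Rik ends 294 bases before St6gal1 on the same strand of chromosome 16. It was at 34.9 and 29.4 CPM in spleen ZsGreen- cells and at 18.5 and 12.6 CPM in spleen ZsGreen+ cells, a log2 change of -1.05 (SE 0.20, adjusted p = 0.0078 by edgeR). The spleen groups did not overlap. St6gal1, the enzyme that adds α2,6-linked sialic acid to glycoproteins, went from 310.2 to 113 CPM in experiment 1 and from 95.8 to 26.5 CPM in experiment 2, a log2 change of -1.66 (SE 0.18, adjusted p = 0.00025 by edgeR). The call on B630019A10Rik was lost without spleen ZsGreen- replicate 1 or spleen ZsGreen+ replicate 2, with an adjusted p of up to 0.098.

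A630023P12Rik, with no coding gene of the count data within 5 kb, was at 29.8 and 46.3 CPM in spleen ZsGreen- cells and at 15.9 and 27.9 CPM in spleen ZsGreen+ cells, a log2 change of -0.82 (SE 0.15, adjusted p = 0.0055 by edgeR). Its 2 spleen ZsGreen+ libraries were the lowest of the 8. The call was lost without spleen ZsGreen+ replicate 1 (adjusted p = 0.073). Mirt1 was at 14.2 and 18.5 CPM in spleen ZsGreen- cells and at 5.16 and 13.7 CPM in spleen ZsGreen+ cells, which were also the lowest 2 of the 8 libraries. The log2 change of Mirt1 was -0.93 (SE 0.25, adjusted p = 0.042 by edgeR), -1.44 within experiment 1 and -0.43 within experiment 2. The Mirt1 call was lost with RLE size factors and without either Peyer's patch ZsGreen- library, without spleen ZsGreen- replicate 1 or without spleen ZsGreen+ replicate 1.

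Chaserr, which lies upstream of Chd2 and is known to restrain the expression of that chromatin remodeller, was at 109 and 240.1 CPM in spleen ZsGreen- cells and at 83.8 and 139 CPM in spleen ZsGreen+ cells. Its log2 change was -0.60 (SE 0.17, adjusted p = 0.0498 by edgeR), just under the threshold. The call was lost with RLE size factors, DESeq2 or limma on the deposited signal. It was also lost without Peyer's patch ZsGreen- replicate 1, Peyer's patch ZsGreen+ replicate 2, spleen ZsGreen- replicate 2 or either spleen ZsGreen+ library. Chd2, with which Chaserr shares 30.5% of its exon bases on the same strand, was at 182 and 108 CPM in spleen ZsGreen- cells and at 151 and 97.8 CPM in spleen ZsGreen+ cells (log2 change -0.20, SE 0.18). AW112010 just missed the threshold at a log2 change of -0.75 (SE 0.22, adjusted p = 0.055 by edgeR), with 95.1 and 1307 CPM in spleen ZsGreen- cells and 77.8 and 591 CPM in spleen ZsGreen+ cells. Its difference within experiment 1 was -0.29 and within experiment 2 was -1.14. The value was -0.30 (adjusted p = 0.48) without spleen ZsGreen- replicate 2, and the gene passed the test with DESeq2 (adjusted p = 0.022), with upper quartile scaling, with either other filter on low counts and without spleen ZsGreen- replicate 1 (-1.14, adjusted p = 0.0015 by edgeR).

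Morrbid and Mirt1 were the members whose RefSeq promoter held the AP-1 motif TGANTCA (searched on both strands), and they moved in opposite directions in spleen. A stretch of each is shown with the motif in capitals, from GRCm38.p6 on the minus strand, Morrbid at chr2:128429306-128429392 and Mirt1 at chr19:53464890-53464976.
Morrbid: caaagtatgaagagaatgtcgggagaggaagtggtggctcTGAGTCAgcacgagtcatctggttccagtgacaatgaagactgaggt
Mirt1: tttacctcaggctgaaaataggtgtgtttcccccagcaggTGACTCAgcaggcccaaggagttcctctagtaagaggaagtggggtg
The motif was in 2 of the 48 members' promoters and in 7.81% of all 32851. The RORγt element searched as TAGGTCA was in 0 of the 48 and in 2.61% of all promoters, which says only that these letters were not in these windows.

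In Peyer's patch, 0 of the 71 members changed between ZsGreen+ and ZsGreen- cells by edgeR, where 0.437% of all genes did. At an unadjusted p under 0.05 there were 5 members, 3 higher and 2 lower. Of the 14418 genes tested 1172 were, 621 higher and 551 lower. DESeq2 and limma on the deposited signal also called 0 members, where they called 139 and 59 of all genes. The member with the largest log2 change was 2310015A10Rik at 0.72 (SE 0.27, adjusted p = 0.47 by edgeR). The lowest value was that of B630019A10Rik at -0.43 (SE 0.20). The Th17 markers were also nearer between the sorts in this tissue, with 4 of 8 higher and summed levels of 204 to 277 CPM in ZsGreen- and 635 to 648 CPM in ZsGreen+ cells, against 170 to 201 and 1452 to 1956 CPM in spleen.

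**Figure D2:**
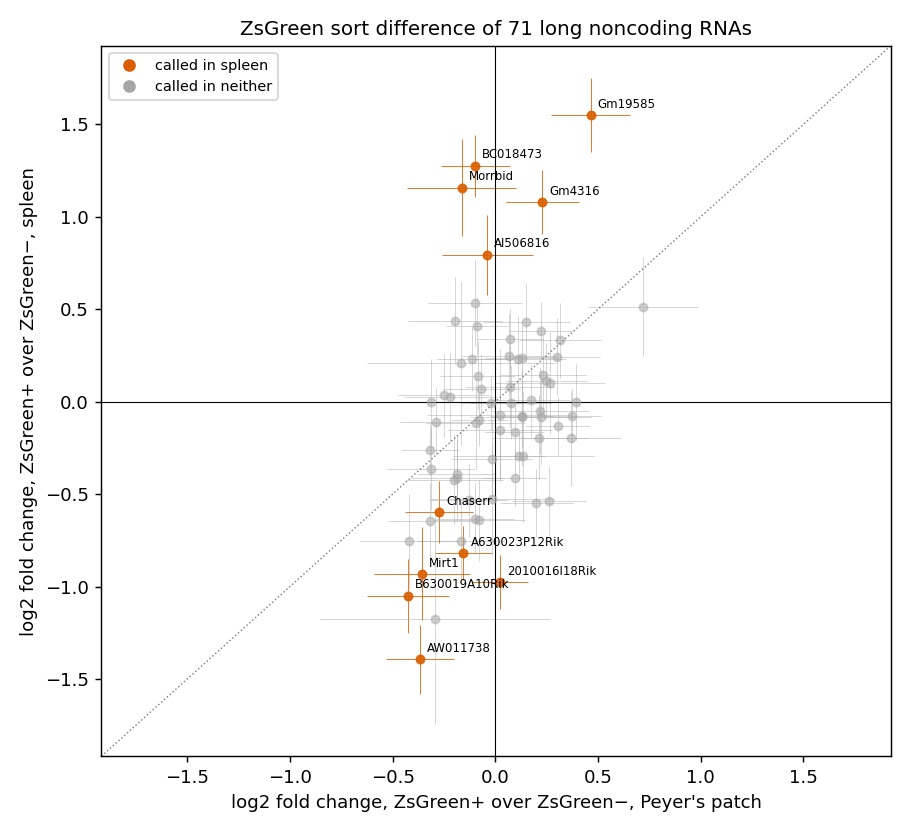
ZsGreen+ over ZsGreen- log2 change of the 71 long noncoding RNAs in Peyer's patch (horizontal) and in spleen (vertical), with bars of 1 SE and a dotted line of equality. The 11 named genes passed the test in spleen and lie between -0.43 and 0.46 on the horizontal axis, and 0 genes passed it in Peyer's patch.

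The difference of the sort between the tissues was itself tested. By edgeR 0 of the 71 members passed, where 0.0971% of all genes did. There were 15 members at an unadjusted p under 0.05, where 1223 of the 14418 genes tested were. DESeq2 called 2 members (BC018473 and 2010016I18Rik) and 143 of all genes. With limma on the deposited signal these counts were 0 and 11. Apart from BC018473, the members of smallest p were 2010016I18Rik at -0.999 (SE 0.20, adjusted p = 0.10), AW011738 at -1.02 (SE 0.25, adjusted p = 0.18) and Gm19585 at 1.09 (SE 0.28, adjusted p = 0.21), by edgeR. A change that passed in spleen was therefore not shown to differ from that in Peyer's patch for any member by this test. Without spleen ZsGreen- replicate 1, BC018473 and Gm19585 passed (adjusted p = 0.045 and 0.019).

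The comparison of Peyer's patch with spleen within ZsGreen+ cells changed more members. Of the 71, 18 (25.4%) changed, 12 higher and 6 lower in Peyer's patch, where 12.7% of all genes did, 5.51% higher and 7.17% lower. Among protein-coding genes with the same minimum the share was 13.8%. The members' median log2 change was 0.24, and that of all genes was 0.01. This comparison shares the spleen ZsGreen+ libraries with the spleen sort. The count was 11 without Peyer's patch ZsGreen+ replicate 1, 9 without spleen ZsGreen+ replicate 1 and 11 without spleen ZsGreen+ replicate 2. The number of all genes called also fell in each of these fits. Between the tissues 5 of 8 Tfh markers were higher and 7 of 8 Th17 markers lower in Peyer's patch ZsGreen+ cells. The B cell markers summed to 4.35 to 76.2 CPM in Peyer's patch ZsGreen+ cells against 3.50 to 4.18 CPM in spleen ZsGreen+ cells. The markers of CD8 T and NK cells summed to 57.8 to 64.1 CPM against 23.2 to 27.2 CPM, and the epithelial ones to 11.5 to 16.0 CPM against 3.39 to 7.55 CPM. Most of the CD8 T and NK sum was Klrb1c, at 53.9 and 57.6 CPM against 19.4 and 19.2 CPM. It was the 1 that rose of the 3 tested on that list, whose median log2 change was -0.15. Klrb1c (NK cells) and Lyz2 and Cd68 (myeloid cells) were higher in Peyer's patch, by 1.40, 1.89 and 1.77 on the log2 scale, and of the other myeloid markers Itgam and Cst3 were lower, by -3.25 and -0.67. Mitochondrial genes took 4.53% to 4.76% of counts in Peyer's patch ZsGreen+ cells and 2.81% to 3.19% in spleen ZsGreen+ cells. The part of other cells and of RNA quality in the members' differences was not tested.

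AW011738 was at 59.3 and 23.4 CPM in Peyer's patch ZsGreen+ cells of experiments 1 and 2, against the 12.1 and 6.77 CPM of spleen given above. The log2 change was 2.07 (SE 0.18, adjusted p = 3.5e-05 by edgeR). 2010016I18Rik was at 146 and 29.5 CPM in Peyer's patch ZsGreen+ cells, and its log2 change was 1.80 (SE 0.14, adjusted p = 2.3e-05 by edgeR). Dennd2d, on the other strand, had a log2 change of 1.78 (SE 0.20, adjusted p = 0.00019 by edgeR). Isg15, the head-to-head neighbour of AW011738, did not pass at 0.60 (SE 0.20, adjusted p = 0.070 by edgeR). A630023P12Rik was at 44.8 and 63.7 CPM in Peyer's patch ZsGreen+ cells, above spleen in each experiment, with a log2 change of 1.34 (SE 0.14).

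Kcnq1ot1, the imprinted antisense transcript that silences genes of the Kcnq1 domain on the paternal chromosome, was at 24.8 and 69.1 CPM in Peyer's patch ZsGreen+ cells and at 12.6 and 30.001 CPM in spleen ZsGreen+ cells. That is a log2 change of 1.09 (SE 0.16, adjusted p = 0.0010 by edgeR). Cdkn1c, a gene of that domain looked up after the values were seen, was between 0.435 and 2.30 CPM in the 8 libraries and did not pass in any comparison of tissue or sort. AI504432, on the same strand 1434 bases from the potassium channel gene Kcna3, was at 284 and 24.8 CPM in Peyer's patch and at 127 and 8.83 CPM in spleen, a log2 change of 1.29 (SE 0.14, adjusted p = 0.00016 by edgeR). Kcna3 had a log2 change of 0.95 (SE 0.40, adjusted p = 0.22 by edgeR). 2310001H17Rik was at 54.4 and 127 CPM in Peyer's patch and at 27.7 and 49.2 CPM in spleen, with a log2 change of 1.16 (SE 0.18).

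Mirt1 was higher in Peyer's patch ZsGreen+ cells by 1.35 (SE 0.25, log2), a call lost without spleen ZsGreen+ replicate 1 (adjusted p = 0.053 by edgeR). 5830428M24Rik was higher by 0.80 (SE 0.20), a call lost without any 1 of the 4 ZsGreen+ libraries. The remaining 4 of the 12 that were higher were Gm30054 (1.06), Gm20427 (0.94), BE692007 (0.66) and 1500004A13Rik (0.58). Gm30054 shares 82.9% of its exon bases with Fam149b on the opposite strand, which also rose (0.66, SE 0.17, adjusted p = 0.022 by edgeR). Gm20427 shares 56.2% with Slc39a7 on the same strand (-0.11, SE 0.13). BE692007 and 1500004A13Rik share 20.8% and 20.9% with a gene on the opposite strand. The part of shared bases in these 4 values was not tested.

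The 4 members that were lower by more than 1 on the log2 scale were among the 5 that had risen with ZsGreen in spleen. BC018473 was at 22.0 and 36.1 CPM in Peyer's patch ZsGreen+ cells, a log2 change of -1.50 (SE 0.17, adjusted p = 0.00016 by edgeR). Morrbid had a log2 change of -1.34 (SE 0.26, adjusted p = 0.0054 by edgeR), a call lost without Peyer's patch or spleen ZsGreen+ replicate 1. AI506816 was at 19.96 and 27.7 CPM in Peyer's patch, with -1.32 (SE 0.22), and Gm4316 at 8.21 and 27.5 CPM, with -1.22 (SE 0.17). Gm19585, the fifth, had a log2 change of -0.32 (SE 0.19, adjusted p = 0.32 by edgeR) and did not pass the test. The other members that were lower were 6530402F18Rik at -0.61 (SE 0.17, adjusted p = 0.037) and Gm17494 at -0.46 (SE 0.14, adjusted p = 0.049), by edgeR. The call on 6530402F18Rik was lost without any 1 of the 4 ZsGreen+ libraries or Peyer's patch ZsGreen- replicate 1, and that on Gm17494 without any 1 of the 4 ZsGreen+ or 2 Peyer's patch ZsGreen- libraries, with upper quartile scaling and with a minimum of 5 CPM for every gene tested.

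Within ZsGreen- cells, 7 of the 71 members (9.86%) differed between the tissues, 6 higher and 1 lower in Peyer's patch, where 5.49% of all genes did, 1.82% higher and 3.68% lower. Among protein-coding genes with the same minimum the share was 5.64%. The count was 1 without Peyer's patch ZsGreen- replicate 1, 1 without replicate 2, 2 without spleen ZsGreen- replicate 1 and 3 without spleen ZsGreen- replicate 2, and each of the 7 lost its call without at least 1 of these libraries. The number of all genes called also fell without each of these libraries. The B cell markers summed to 3.87 to 42.3 CPM in Peyer's patch ZsGreen- cells and to 0.799 to 4.73 CPM in spleen ZsGreen- cells. The markers of CD8 T and NK cells summed to 62.7 to 70.03 CPM against 21.6 to 32.0 CPM, and the epithelial ones to 9.13 to 9.29 CPM against 2.76 to 4.60 CPM. Most of the CD8 T and NK sum was again Klrb1c, higher by 1.69 (log2). It was the 1 that rose of the 3 tested on that list, whose median log2 change was -0.44. Their part was not tested.

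The members higher in Peyer's patch ZsGreen- cells included 5 that were also higher in Peyer's patch ZsGreen+ cells. AW011738 was at 75.5 and 30.7 CPM in Peyer's patch and at 33.0 and 17.02 CPM in spleen, a log2 change of 1.04 (SE 0.17, adjusted p = 0.0043 by edgeR), and Isg15 was at -0.02 (SE 0.19). Kcnq1ot1 was at 20.8 and 68.2 CPM against 12.03 and 35.1 CPM, a log2 change of 0.88 (SE 0.16, adjusted p = 0.0081 by edgeR). AI504432 had a log2 change of 0.84 (SE 0.15), 2010016I18Rik of 0.80 (SE 0.14) and A630023P12Rik of 0.68 (SE 0.14). Dennd2d, the gene that 2010016I18Rik overlaps, was also higher (log2 change 0.89, SE 0.20, adjusted p = 0.022 by edgeR).

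Gm45606 and Gm20559 complete the 7. Gm45606 was at 39.6 and 36.3 CPM in Peyer's patch ZsGreen- cells and at 25.6 and 22.2 CPM in spleen ZsGreen- cells, with no overlap, a log2 change of 0.66 (SE 0.16, adjusted p = 0.028 by edgeR). It lies on the opposite strand of Slc43a2, an amino acid transporter gene, and shares 33.0% of its exon bases with it. Slc43a2 had a log2 change of 0.59 (SE 0.13, adjusted p = 0.018 by edgeR) in the same comparison. Gm20559 was at 11.8 and 6.43 CPM in Peyer's patch and at 23.6 and 11.7 CPM in spleen, the member that was lower (log2 change -0.94, SE 0.22, adjusted p = 0.031 by edgeR).

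**Figure D3:**
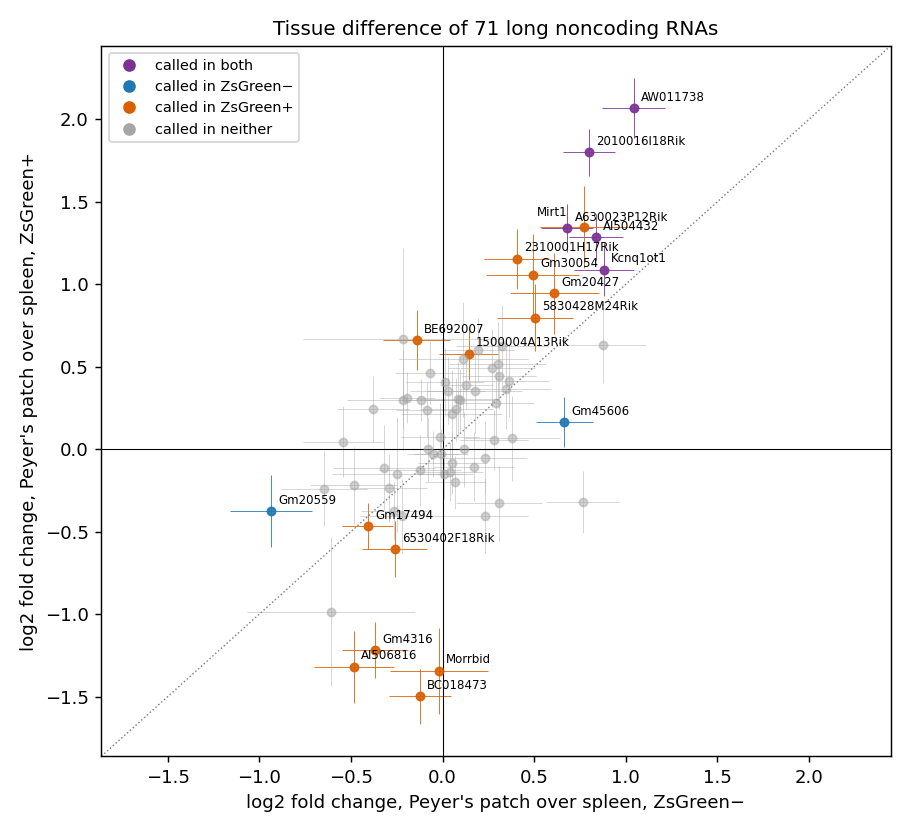
Peyer's patch over spleen log2 change of the 71 long noncoding RNAs in ZsGreen- cells (horizontal) and ZsGreen+ cells (vertical), with bars of 1 SE and a dotted line of equality. AW011738 lies farthest up at 1.04 and 2.07, and BC018473 farthest down at -0.13 and -1.50.

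Counted over the 44 members with a tested coding neighbour, 5 members and 6 neighbours changed in the spleen sort (8.62% of all genes did), and in 3 pairs both changed in the same direction (Isg15, Dennd2d and St6gal1). In the tissue comparison of ZsGreen- cells 4 of these members and 5 neighbours changed (5.49% of all genes), with 2 pairs in the same direction, and in that of ZsGreen+ cells 10 members and 10 neighbours did (12.7% of all genes), also with 2 such pairs. In 0 pairs of these 3 comparisons did the member and the neighbour both change in opposite directions. Pairs in which only the neighbour changed were not counted by direction. Some of them had values of opposite sign, such as Tnfsf9 and Gm11110 in the tissue comparisons. Between the experiments 34 members and 37 neighbours changed (71.1% of all genes), 15 pairs in the same direction and 14 in opposite directions. Galnt2l, the neighbour of both 2810013P06Rik and Gm4316, was counted for each of them. How often other neighbouring genes move together was not tested.

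The snoRNA hosts are spliced transcripts whose introns release box C/D or H/ACA RNAs, while the exons are turned over by nonsense-mediated decay. Of 21 listed hosts 6 were members, and 0 of the 6 changed in either sort or either tissue comparison by edgeR. With 0.437% (Peyer's patch) and 8.62% (spleen) of all genes changed by the sort and 5.49% (ZsGreen-) and 12.7% (ZsGreen+) by tissue, 6 genes are too few to read a count of 0 against the background. Gas5, the best known of them, was at 43.3 and 99.5 CPM in spleen ZsGreen- cells and at 39.5 and 62.4 CPM in spleen ZsGreen+ cells (log2 change -0.41, SE 0.16, adjusted p = 0.14 by edgeR). In Peyer's patch Gas5 was at 45.7 and 72.7 CPM in ZsGreen- and at 47.6 and 79.8 CPM in ZsGreen+ cells. Snhg15 varied the most among the hosts, with 7.49 and 32.8 CPM in spleen ZsGreen- cells of experiments 1 and 2 and 8.65 and 13.1 CPM in Peyer's patch ZsGreen- cells. Snhg1, Snhg5, Snhg16 and Snhg17 lay between 8.10 and 33.8 CPM in all libraries.

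Genes of this kind often start with a run of pyrimidines. The 30 bases from 10 before to 20 after the RefSeq start are shown for the 3 hosts with the longest such run (GRCm38.p6), with the run of C and T in capitals. Snhg1 is at chr19:8723477-8723506 and Snhg16 at chr11:116671650-116671679 on the plus strand, and Snhg5 at chr9:88522878-88522907 on the minus strand.
Snhg1: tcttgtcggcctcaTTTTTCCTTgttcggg
Snhg16: gcgcaagcgcgatctcgTCCTTTCCgaggt
Snhg5: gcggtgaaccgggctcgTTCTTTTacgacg
A run at least as long as the 9 bases of Snhg1 was in 7.11% of all RefSeq windows of this size, one of at least the 8 of Snhg16 in 11.2% and one of at least the 7 of Snhg5 in 17.9%. The longest run was 4 bases in the window of Snhg15, 6 in those of Snhg17, and 3 and 6 in the windows of the 2 RefSeq starts of Gas5. A run of 3 bases or more was in 88.3% of all windows and one of 6 or more in 28.7%.

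Dleu2 was the microRNA host among the members, 1 of 13 listed. Its transcript carries the hairpins of the tumour-suppressive pair miR-15a and miR-16, whose mature sequences (RefSeq, GRCm38.p6, chromosome 14, minus strand, at chr14:61632075-61632096 and chr14:61631936-61631957) share the seed, bases 2 to 8, shown in capitals.
mmu-miR-15a-5p: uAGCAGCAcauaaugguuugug
mmu-miR-16-5p: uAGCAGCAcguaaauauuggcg
Dleu2 was at 15.7 and 33.3 CPM in spleen ZsGreen- cells and at 19.2 and 27.0 CPM in spleen ZsGreen+ cells, and at 16.4 and 28.6 CPM and 19.6 and 26.5 CPM in Peyer's patch. Its log2 change was -0.01 (SE 0.20) for the sort in spleen and 0.07 for that in Peyer's patch, and it did not pass in either tissue comparison. These libraries measure the host and not the mature microRNAs.

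The nuclear list gave 7 members of 17, Malat1, Neat1, Norad, Kcnq1ot1, Pvt1, Oip5os1 and Chaserr. Besides Kcnq1ot1 by tissue and Chaserr by the sort in spleen, 0 of them changed in a sort or tissue comparison by edgeR. Malat1 was at 1467 and 11779 CPM in Peyer's patch ZsGreen- cells, 2088 and 4790 in Peyer's patch ZsGreen+, 1259 and 16082 in spleen ZsGreen- and 1111 and 4102 in spleen ZsGreen+ cells of experiments 1 and 2. The 2 libraries above all others were the ZsGreen- ones of experiment 2. The log2 difference of the sort in spleen was -0.18 within experiment 1 and -1.97 within experiment 2 (fitted value -1.18, SE 0.57, adjusted p = 0.28 by edgeR), and in Peyer's patch it was 0.51 and -1.30. Those 2 libraries also had the smallest totals of the 8, 10843208 and 10009823 counts, and the highest shares of mitochondrial counts, 6.002% and 5.26% against 2.70% to 4.87% in the others. The part of either in the Malat1 difference was not tested.

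Neat1, the scaffold RNA of paraspeckles, was at 161 and 59.9 CPM in Peyer's patch ZsGreen- cells and at 257 and 54.2 CPM in ZsGreen+ cells, and in spleen at 187 and 77.3 CPM and at 259.9 and 77.8 CPM. Norad, which binds Pumilio proteins, was steady within each experiment, at 178 to 207 CPM in experiment 1 and 45.9 to 56.0 CPM in experiment 2. Its mean SD of log2 CPM over the 4 libraries of an experiment was 0.11, the second smallest of the 71 after Brip1os at 0.07. AW011738 at 1.05 and 2010016I18Rik at 0.85 had the largest. Oip5os1, known as Cyrano and for its role in the decay of miR-7, had a log2 change of -0.16 in spleen (SE 0.14) and 0.09 in Peyer's patch. Pvt1, the neighbour of Myc, was between 6.87 and 10.3 CPM in all 8 libraries.

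**Figure D4:**
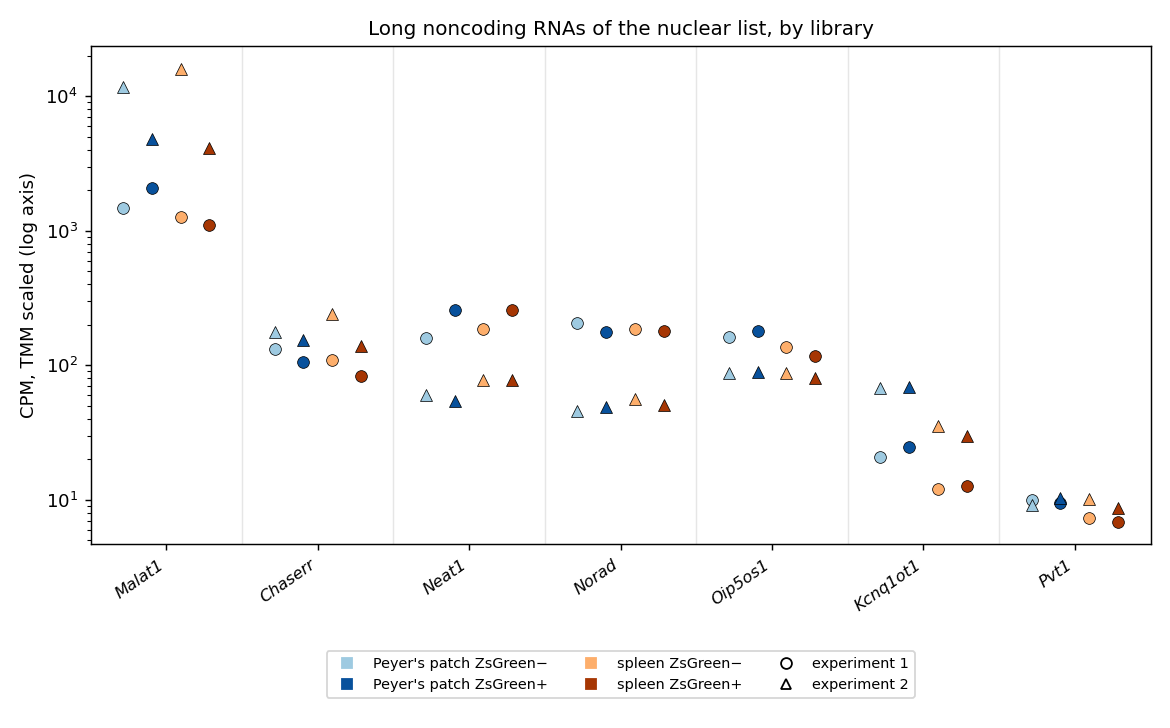
Levels of the 7 nuclear long noncoding RNAs in each of the 8 libraries (TMM-scaled CPM, log axis; colours are the 4 groups, circles experiment 1 and triangles experiment 2). Malat1 and Kcnq1ot1 lie higher in experiment 2, and Neat1, Norad and Oip5os1 lower, in every group.

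Proteins that work with these RNAs were also counted. For the factors of nonsense-mediated decay (12 genes), paraspeckles (14), nuclear speckles (14) and snoRNA particles (12), 0 genes changed in the sort or tissue comparisons by edgeR. Of all genes, 0.437% and 8.62% changed in the Peyer's patch and spleen sorts, and 5.49% and 12.7% in the tissue comparisons of ZsGreen- and ZsGreen+ cells. The difference of these lists from the other genes was not tested. Of 10 genes of microRNA processing, Ago2, a slicing Argonaute, was lower in Peyer's patch ZsGreen- than in spleen ZsGreen- cells (log2 change -0.61, adjusted p = 0.037 by edgeR). Dicer1, the enzyme that cuts hairpins, and Ago1 were higher in Peyer's patch ZsGreen+ than in spleen ZsGreen+ cells, by 0.48 and 0.60 on the log2 scale.

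The largest differences of the members were between the experiments, which the labels do not describe further. Of the 71, 55 (77.5%) differed, 38 higher and 17 lower in experiment 2, where 71.1% of all genes did, 35.3% higher and 35.7% lower. Among coding genes with the same minimum 82.1% did, so the members' share lay between both backgrounds. Of these coding genes 45.2% were higher and 36.9% lower. The members' median log2 change was 0.60, that of all genes -0.02 and that of the coding genes with the same minimum 0.15. Experiment, library preparation and animals cannot be told apart. The share of counts on ribosomal protein genes also moved with the experiment, being 2.30% to 3.004% in experiment 1 and 0.958% to 1.14% in experiment 2, and its part in the members' differences was not tested.

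AI504432 was the lowest relative to experiment 1, at 122 to 284 CPM there and 8.83 to 24.8 CPM in experiment 2 (log2 change -3.59, SE 0.11). Gm10076 (-2.74, SE 0.27), 6530402F18Rik (-2.38, SE 0.13), 2010016I18Rik (-2.17, SE 0.10), AU020206 (-2.10, SE 0.15), Norad (-1.90, SE 0.10) and Neat1 (-1.67, SE 0.15) were also lower. Gm17494, at 25.7 to 46.3 CPM in experiment 1 and 269 to 414 CPM in experiment 2, was the highest (3.19, SE 0.11). AW112010 followed at 3.14 (SE 0.16), with 77.8 to 95.1 CPM in experiment 1 and 591 to 1307 CPM in experiment 2. Malat1 was at 2.44 (SE 0.42), Gm19585 at 2.03 (SE 0.14), AI662270 at 1.82 (SE 0.11) and Kcnq1ot1 at 1.50 (SE 0.12). For these named genes the 4 libraries of each experiment did not overlap with those of the other.

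The role groups were divided by the experiment. Of the 6 snoRNA hosts 3 were higher in experiment 2 (Gas5 0.82, Snhg5 0.81, Snhg15 1.13), 2 were lower (Snhg1 -1.01, Snhg17 -0.40), and Snhg16 did not pass at -0.34. Of the 7 nuclear RNAs 3 were higher and 3 lower, and Pvt1 did not pass at 0.20. All 3 members placed on the lymphocyte list were higher, Morrbid by 1.47, Mirt1 by 0.76 and AW112010 by 3.14. That list was put together by gene name, and a role of each in lymphocytes was not tested. Among the partner proteins, 9 of 12 factors of nonsense-mediated decay were lower and 3 higher in experiment 2, 8 of 10 of microRNA processing were lower and 1 higher, and 11 of 12 of the snoRNA particles were higher and 1 lower. Of the 14 paraspeckle proteins 4 were higher and 7 lower, and of the 14 speckle proteins 8 were higher and 3 lower. Of all genes 35.7% were lower and 35.3% higher, and of coding genes with at least 5 CPM in every library 36.9% and 45.2%. Pum2, the Pumilio protein gene, looked up after the values were seen, was lower by 3.21 (log2, SE 0.10).

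**Figure D5:**
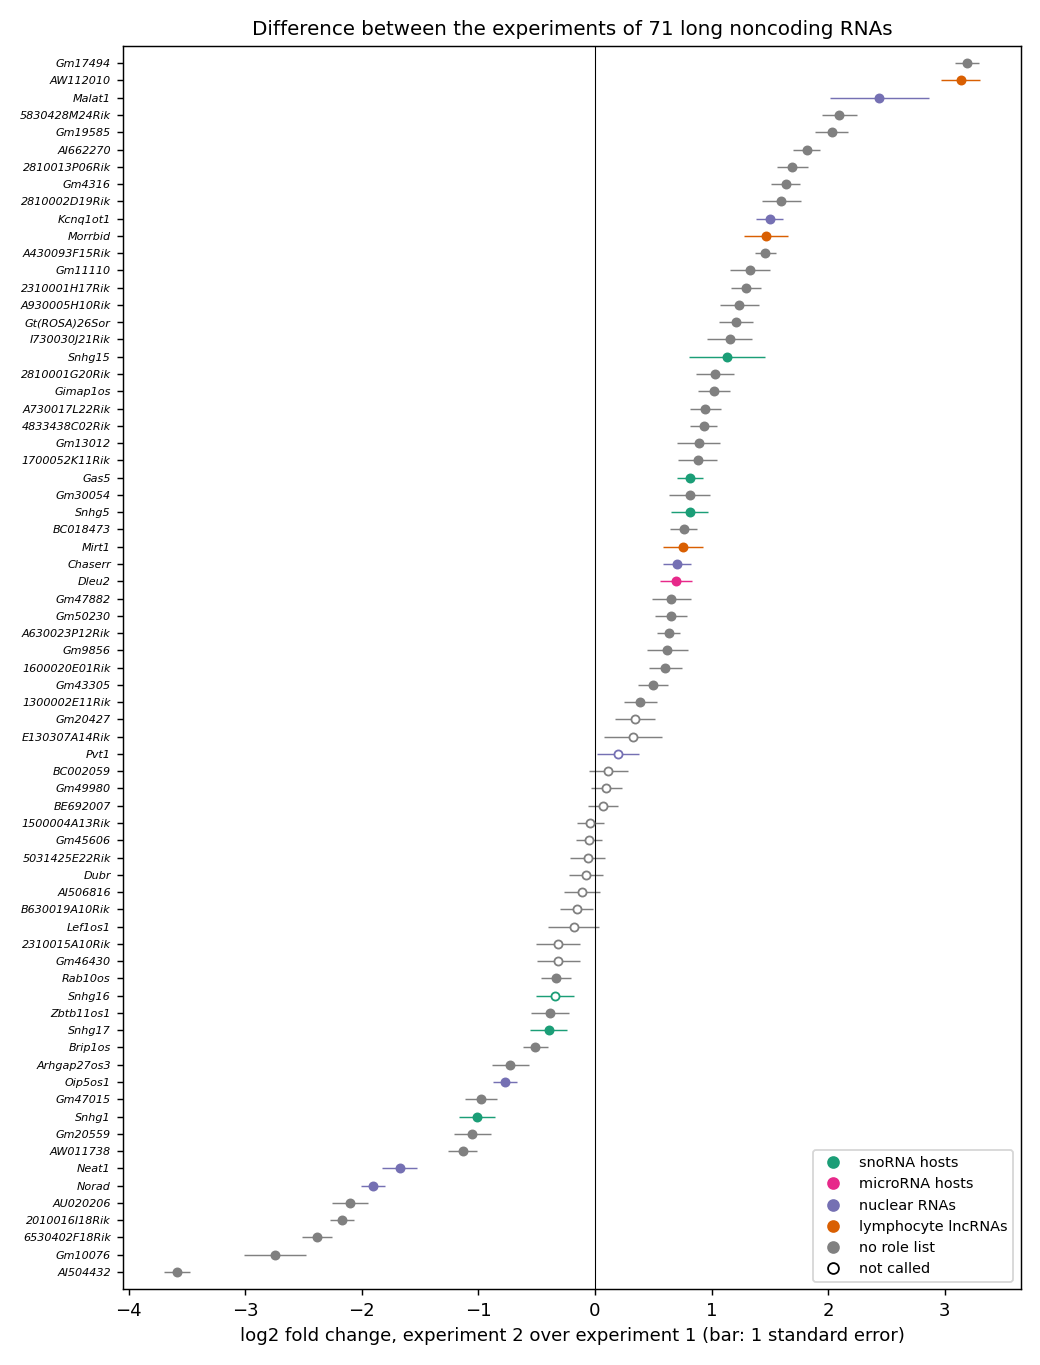
Log2 fold change of experiment 2 over experiment 1 for each of the 71 long noncoding RNAs, ranked, with bars of 1 SE, coloured by role list and open where the test was not passed. The values run from -3.59 for AI504432 to 3.19 for Gm17494, and each role list with several members but the lymphocyte list has members on both sides of 0.

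Gm10076 needs a separate word on what was counted. It is a single block of 384 bases at chr14:105919262-105919645 (mm39, plus strand), and its GENCODE transcript differed from a transcript of Rpl41, a ribosomal protein gene, at 3 of 384 aligned bases. Counted from 1 at the 5′ end of Gm10076, with the base of Gm10076 first, these were G1C, T127C and A234G. The stretches around the internal differences are shown with the differing base in capitals.
Gm10076 at 127: agtaagccagccTgtgcacctacga
Rpl41 at 127: agtaagccagccCgtgcacctacga
Gm10076 at 234: tagacctggaacAtcacctcgccgc
Rpl41 at 234: tagacctggaacGtcacctcgccgc
The counts of the pair can be split in either way by a counter, so the 250.3 to 387 CPM of Gm10076 in experiment 1 and its 37.1 to 68.5 CPM in experiment 2 are uncertain. Rpl41 itself was at 252 to 588 CPM in experiment 1 and at 178 to 250.03 CPM in experiment 2 (log2 change -0.94, SE 0.17). In all, 4 members had a near-identical transcript of another gene. Norad has a copy, Gm7292, over 51.6% of its length. For Gm20427 it is Slc39a7 over 55.2%, and for Gm49980 it is Gm42427 over 59.1%, so the counts of these genes are uncertain in the same way.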

How the data were processed

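The raw tables deposited by the authors hold estimated counts (expected counts) per gene, of which 20.8% to 31.2% in a library were not whole numbers within 0.01. The authors' normalized values are a deposited signal, equal to the same counts times 1 constant per library (0.765 to 1.58) that was set within an experiment. The submitters' processing notes name STAR, Partek, DESeq2 and build mm39. How they were set is not given in these sources. Both units were read from the values.

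Counts were rounded and tested with edgeR 4.0.16 (R 4.3.3): TMM scaling, factors 0.656 to 1.24, filterByExpr by group (minimum count 10, minimum total 15; 2317 genes removed), and a robust quasi-likelihood fit with 4 group means and an experiment term (3 residual degrees of freedom). There were 6 contrasts. Replicate numbers pair the libraries, because replicates 1 and 2 are named in the labels as coming from the tables of experiments 1 and 2, and deviations from the group means correlated with r of 0.825 to 0.867 over 6 pairs of groups. Nothing in the labels says that replicates came from separate animals, so the p-values measure only the spread between these libraries, which may be technical. The method was tested on simulated data.

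The members and all gene lists were chosen with earlier results of these data known. Named genes were all members of the role lists, those past the adjusted threshold (up to the 10 of smallest p per contrast), the 10 of highest mean CPM and the 5 of smallest and largest spread, with the nearest coding gene within 5 kb. That neighbour was sought only among coding genes that both experiments' count data list. Exon overlap and near-identical copies (blastn 2.17.0, at least 95% identity over 50% of the transcript) were taken from GENCODE vM21 on GRCm38 by gene ID, and member positions from the files (mm39). The stop coordinate in the files is 1 past the last base and was lowered by 1. Promoters and microRNAs are from RefSeq (GRCm38.p6). DESeq2 1.42.0, limma 3.58.1 (log2 of signal + 1) and other filters and scalings were alternatives.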

Additional observations from a re-analysis of the deposited data

How the results depend on the processing

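No call on a named member reversed its direction under the alternatives run. The calls on the other members were not examined for direction. Without the replicate block, that is without the term that pairs libraries by experiment, 0 members and 0 of all genes passed in either sort or tissue comparison, against 11 members in the spleen sort, 7 in the tissue comparison of ZsGreen- cells and 18 in that of ZsGreen+ cells with it. With each library left out in turn, the members called ranged from 7 to 11 in the spleen sort, from 1 to 8 and from 9 to 19 in the tissue comparisons of ZsGreen- and ZsGreen+ cells, from 0 to 2 for the difference of the sort between tissues and from 51 to 52 between experiments. The number of all genes called also changed with the library left out. The difference of the sort between tissues gave 1 member without a filter on low counts, where 47 of all genes passed. It gave 1 with at least 5 CPM required of every gene (20 of all genes) and 2 with DESeq2 (143 of all genes). A member minimum of 10 CPM left 38 long noncoding RNAs, of which 6, 3, 8 and 31 passed in the spleen sort, the tissue comparisons of ZsGreen- and ZsGreen+ cells and between experiments. A minimum of 2 CPM gave 144, of which 15, 12, 29 and 95 passed (10.4%, 8.33%, 20.1% and 66%). At 10 CPM the shares were 15.8%, 7.89%, 21.1% and 81.6%, and over all genes tested they were 8.62%, 5.49%, 12.7% and 71.1%. Leaving aside the fit without the block, 4 of 11 named calls in the spleen sort, 0 of 7 and 9 of 14 in the tissue comparisons of ZsGreen- and ZsGreen+ cells and 30 of 33 between experiments kept their side of the threshold in every fit. limma on the signal gave no value between experiments, because those tables were normalized separately. Depth limits the members near 5 CPM, which had as few as 51.0 counts in a library.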
